A study of Homo sapiens with 9 samples.

Results

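The nuclear-encoded subunits of oxidative phosphorylation were followed in A375 cells treated with TP-472. Members were all gene symbols of the count table that name a subunit of complex I (NDUFA, NDUFB, NDUFC, NDUFS or NDUFV with a number), complex II (SDHA to SDHD), complex III (UQCR), complex IV (COX4 to COX8) or complex V (ATP5). The rule found 88 of 26475 symbols, with 37 in complex I, 4 in complex II, 10 in complex III, 17 in complex IV and 20 in complex V. Of these, 83 passed the filter on low counts, together with 16417 genes in all. The other 5, ATP5EP2, ATP5L2, COX4I2, COX6A2 and COX8C, were too low to test. The rule used names only and no measured value. It also takes in UQCRBP1, a pseudogene of UQCRB, the read-through transcript ATP5J2-PTCD1, ATP5SL, which is now regarded as an assembly factor of complex I, and NDUFA4, which is counted under complex I by its symbol and is now regarded as a subunit of complex IV.

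A375 is a human melanoma cell line that carries an activating BRAF mutation, and TP-472 is a small molecule that binds the bromodomains of BRD9 and BRD7. All cells were of this line and were grown in the same medium with fetal bovine serum. Cells were kept for 24 h in DMSO, which was the vehicle control, or in TP-472 at 5 µM or at 10 µM, and mRNA was sequenced in 3 biological replicates per group. A cell line grown in culture is a limited model of melanoma, since it holds no other cell type of a tumour.

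Oxidative phosphorylation takes place in the inner membrane of the mitochondrion. Complex I oxidises NADH and complex II oxidises succinate, both pass electrons to ubiquinone, complex III passes them on to cytochrome c, and complex IV passes them to oxygen. The proton gradient built by complexes I, III and IV drives complex V, the ATP synthase. A few hydrophobic core subunits are made inside the mitochondrion from its own DNA, and the remaining subunits, to which most of the genes described here belong, are encoded in the nucleus and imported. In melanoma, oxidative phosphorylation is known to vary between cell states and to bear on the response to BRAF inhibitors.

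Promoters of these genes are known for binding sites of NRF1, of ETS family factors such as GABPA, and of YY1. RefSeq promoter sequences (GRCh38.p14, 250 bases before to 50 bases after the start) were at hand for 67 of the 88 members. Both strands were searched for the NRF1 core GCATGCGC, the ETS motif CCGGAAG and the YY1 motif AAGATGGCG, none of which contains another. The NRF1 core was found in 13 of these promoters (19.4%, against 3.27% of all 27305 promoters in the table), the ETS motif in 19 (28.4% against 10.7%) and the YY1 motif in 8 (11.9% against 1.85%). The windows below belong to members whose transcripts are described further on. COX6A1 and UQCRQ rose at both doses without 10 µM replicate 1, ATP5I rose by at least 1.5-fold with and without that library, ATP5G2 fell without it, and SDHB and SDHD belong to complex II but moved differently. Capitals mark the motif, read on the strand of the gene, and GCGCATGC and CTTCCGG are the motifs on the other strand.
COX6A1, NRF1 core, chr12:120437884-120437913, plus strand: ggagggcacacGCATGCGCacgaaggaaac
COX6A1, NRF1 core on the other strand, chr12:120437928-120437957, plus strand: ggaggtgcagaGCGCATGCtctctcttgcc
COX6A1, ETS motif on the other strand, chr12:120438083-120438112, plus strand: attttccacttccgCTTCCGGcgctgcggc
UQCRQ, ETS motif, chr5:132866577-132866606, plus strand: aatggtatctcCCGGAAGttacctcacgac
ATP5I, NRF1 core on the other strand, chr4:674336-674365, minus strand: cgccgctgacgGCGCATGCgtgcgcccagc
ATP5G2, NRF1 core, chr12:53676105-53676134, minus strand: gcccgggtcacGCATGCGCtgagccttcct
SDHB, NRF1 core, chr1:17054214-17054243, minus strand: aagccaaatggGCATGCGCcgctactgcgc
SDHB, ETS motif, chr1:17054142-17054171, minus strand: cacccgggaaaCCGGAAGccgcctcccact
SDHD, ETS motif on the other strand, chr11:112086785-112086814, plus strand: ccgcctctcgaCTTCCGGttcacccagcat
The promoter of UQCRC2, which had the largest fall among members called lower, held none of the 3 motifs. Those of NDUFB3, NDUFV3, COX7B and ATP5E, which rose, held none either, and that of UQCRC1, which fell without 10 µM replicate 1, held the YY1 motif. The ETS windows of COX6B1, COX8A, NDUFA13 and UQCRH, also described further on, are not shown. Of these, only COX6B1 was called at 10 µM with all libraries. A match is a stretch of letters, and binding of these factors was not measured.

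The libraries held 42483091 to 51298130 expected counts each, and ribosomal RNA took 8.2% to 19.9% of them. Levels are given as CPM, the counts scaled to a common library size with TMM factors. The lineage marker SOX10 was present in every library (363 to 426 CPM), while TYR, the pigment enzyme, and CD3E, a T cell marker, were at 0 in all 9 and PTPRC, the pan-leukocyte marker, did not exceed 0.537 CPM. CD68, which is used as a macrophage marker and is also expressed outside that lineage, was at 53.3 to 58.7 CPM with DMSO, 83.4 to 84.6 CPM with 5 µM and 130, 97.4 and 87.1 CPM at 10 µM, and the part of other cells in the results was not tested. In 10 µM replicate 1, genes with short transcripts stood high: the median ratio to the DMSO mean was 1.33 over the shortest quartile of genes and 0.712 over the longest, against 1.02 to 1.03 over the shortest quartile in the other treated libraries. Of the 83 members, 66 lie in the shortest quartile. Results are therefore given for all 9 libraries and without 10 µM replicate 1.

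As a share of the counts outside ribosomal RNA, the members took 0.788% to 0.831% in DMSO and 0.881% to 0.914% at 5 µM. They took 1.29%, 0.935% and 0.963% in 10 µM replicates 1, 2 and 3. The median member, as a ratio to its own DMSO mean, stood at 1.12, 1.07 and 1.12 in the 5 µM libraries. At 10 µM it stood at 1.78 in replicate 1 and at 1.12 and 1.14 in replicates 2 and 3. The DMSO libraries lay between 0.964 and 1.03, so every treated library lay above every DMSO library, and 10 µM replicate 1 lay far above the other treated libraries. In bulk samples, fewer cells of a type and less RNA per cell cannot be told apart.

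**Figure D1:**
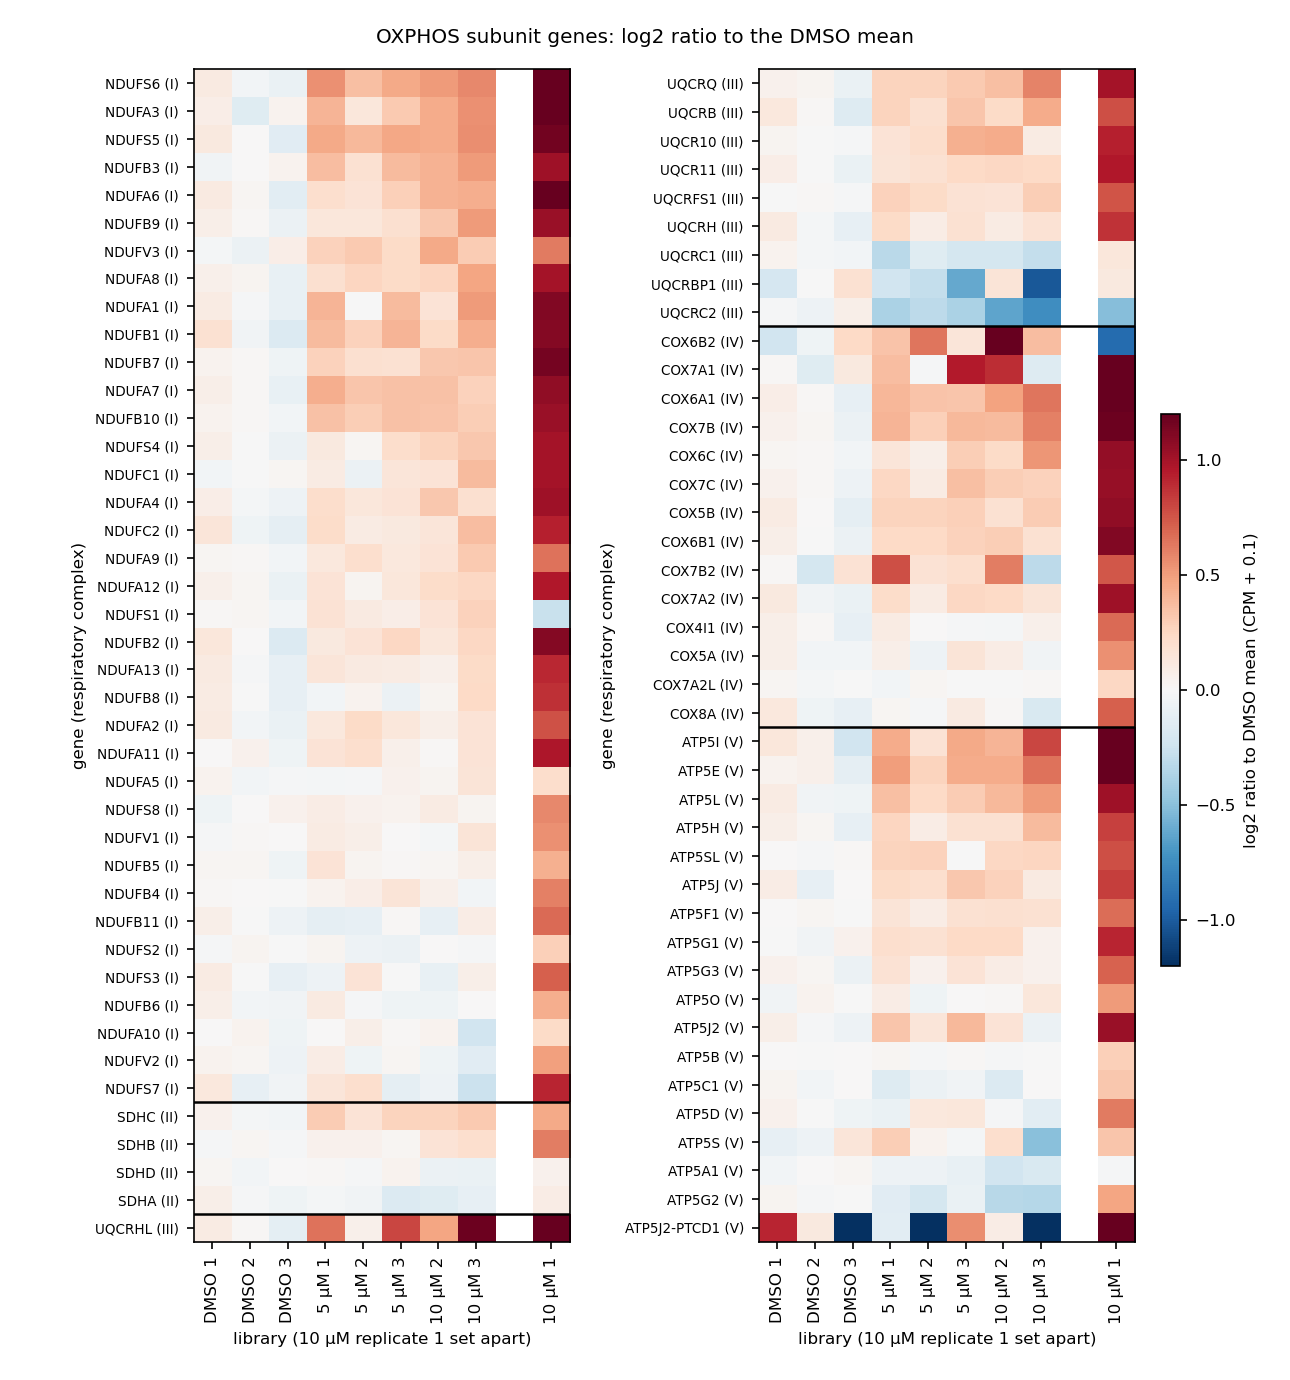
Heat map of the log2 ratio of each tested member's CPM (plus 0.1) to its DMSO mean, with the 9 libraries as columns and the members as rows by complex, and values past either end of the colour scale shown in its end colour. The column of 10 µM replicate 1 is the most strongly coloured. In it 78 of the 83 members lie above all 3 DMSO libraries, beside 43.7% of all genes tested. Genes with short transcripts stood high in that library, and 66 of the 83 members lie in the shortest quartile.

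With all 9 libraries, 39 of the 83 members rose and 1 fell at 10 µM against DMSO by edgeR's quasi-likelihood test at a Benjamini-Hochberg adjusted p under 0.05. Over all genes tested, 16.4% rose and 18% fell. The median log2 fold change of the members was 0.45, beside 0.01 over all genes and 0.20 over the shortest quartile of genes. At a change of at least 1.5-fold as well, 21 members rose and 1 fell, beside 8.57% and 10.5% of all genes. At 5 µM, no member rose and 1 fell, beside 4.4% and 5.81% of all genes, with a median of 0.15 beside 0.01 over all genes. By the same edgeR test at an unadjusted p under 0.05, 4 members rose and 1 fell at 5 µM. The share of all genes at that threshold was not counted. DESeq2 called 1 member higher and 1 lower at 5 µM, beside 1217 and 1463 of all genes. The count of members higher at 10 µM depended on the libraries in the fit, as did that of all genes. It was 18, 17 or 14 without DMSO replicate 1, 2 or 3, beside 1729, 1645 and 1656 of all genes. Leaving out any single 5 µM replicate gave 25, beside 2286 to 2393 of all genes. Without 10 µM replicate 1 it was 42, beside 3854 of all genes.

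Without 10 µM replicate 1, the median of the members was 0.19 at 10 µM, close to the 0.15 at 5 µM. The fold changes at 5 µM were as before and their errors smaller, as for UQCRQ, whose SE went from 0.13 to 0.05 at an unchanged 0.29. At 5 µM, 39 members rose and 3 fell, beside 16.5% and 17.6% of the 16745 genes tested. At 10 µM, 42 rose and 4 fell, beside 23% and 25.8%. All 39 members that rose at 10 µM with all libraries were also called without replicate 1, and 34 rose at both doses. The 2 doses share the DMSO libraries and the 2 fits share most libraries, so these counts are not independent. The same overlaps over all genes were not counted. Rises were small: at a change of at least 1.5-fold, 2 members rose (UQCRHL and ATP5I) and 1 fell (UQCRC2), beside 8.17% and 11% of all genes.

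The position of the libraries showed the same without a model. At 5 µM, 41 of 83 members had all 3 libraries above all 3 DMSO libraries (background 23.7%) and 6 had all 3 below (background 25%). At 10 µM, replicates 2 and 3 lay above all DMSO libraries for 44 members (background 32.8%) and below for 6 (background 34.6%). Replicate 1 alone lay above all DMSO libraries for 78 members (background 43.7%). The members thus lay above the background on the high side and below it on the low side at both doses.

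**Figure D2:**
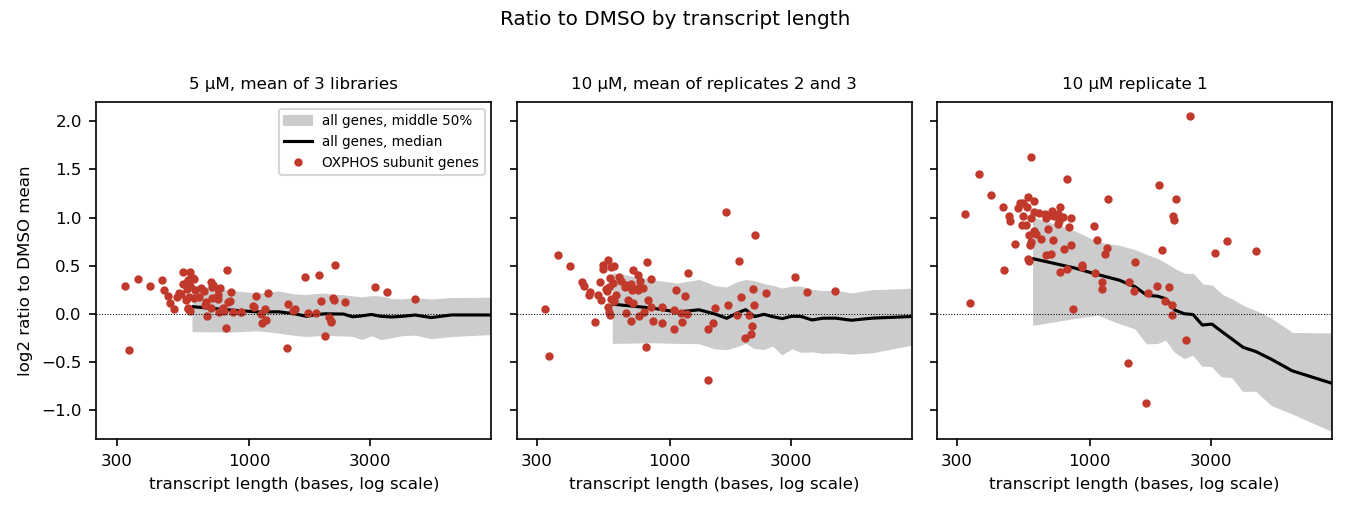
Log2 ratio of CPM (plus 0.1) to the DMSO mean against transcript length in bases (log axis), with panels for the 5 µM mean, the mean of 10 µM replicates 2 and 3, and 10 µM replicate 1. The grey band is the middle 50% of all genes, the black line their median and the red points are the members. In 10 µM replicate 1 the line slopes down from short to long transcripts, and the members, mostly short, lie mainly above it, with a median ratio of 1.78 against 1.33 for the shortest quartile of genes.

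Transcript length moved with the members' changes in the other libraries too. Across the 83 members, Spearman's rho between log2 fold change and length was -0.36 at 5 µM and -0.27 at 10 µM without replicate 1. These points share their libraries, and rho against the DMSO level was -0.33 and -0.27. In the shortest quartile, all genes had a median of 0.05 at each dose without replicate 1, and the members there had medians of 0.17 at 5 µM and 0.21 at 10 µM. After a smooth trend on length and GC content was taken out of every library, and without 10 µM replicate 1, 28 members rose and 5 fell at 5 µM, beside 17.9% and 18.1% of genes. At 10 µM the same fit called 35 higher and 8 lower, beside 24.8% and 25.8%, with medians of 0.10 and 0.12 at the 2 doses. The part of length in the remaining difference was not tested.

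In complex I, the largest group, 19 of 37 genes (51.4%) rose at 10 µM with all 9 libraries and none fell, beside 16.4% and 18% of all genes. Without 10 µM replicate 1, 16 rose at 5 µM (43.2%, beside 16.5% of all genes) and 20 at 10 µM (54.1%, beside 23%). None fell in that fit, beside 17.6% of all genes at 5 µM and 25.8% at 10 µM. With the length and GC trend removed as well, 18 were called higher and 1 lower at 10 µM, beside 24.8% and 25.8%. The 7 core subunits tested here, which carry the flavin, the iron-sulfur clusters and the ubiquinone site, differed in count from the 30 accessory subunits that surround them, NDUFA4 among the latter. No core gene was called at 10 µM with all libraries and 1 (NDUFS1) without replicate 1, and their median went from 0.24 to -0.01. Of the accessory genes, 19 rose at 10 µM in both fits, with medians of 0.56 with all libraries and 0.27 without replicate 1. The difference between core and accessory genes was not tested.

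NDUFS5, an accessory subunit of the membrane arm, was at 74.7, 69.0 and 62.4 CPM in DMSO, 94.2, 90.2 and 94.8 CPM at 5 µM, and 153, 93.8 and 101 CPM at 10 µM. Every treated library lay above every DMSO library, with 10 µM replicate 1 far above the rest. The log2 fold change at 10 µM was 0.76 ± 0.16 (SE; edgeR, adjusted p = 0.00557), and without replicate 1 it was 0.44 ± 0.06 at 5 µM (adjusted p = 3.42e-05) and 0.50 ± 0.06 at 10 µM (adjusted p = 9.96e-06). NDUFS5 has 6 named pseudogenes, and its count was a whole number in every library, so no sign of reads shared with another symbol was seen.

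NDUFB3, also an accessory subunit of the membrane arm, was at 22.5, 23.2 and 23.9 CPM in DMSO, 30, 26.3 and 30.3 CPM at 5 µM, and 47.0, 31.1 and 33.1 CPM at 10 µM. The groups did not overlap DMSO at either dose, and the 10 µM change was 0.68 ± 0.15 with all libraries (edgeR, adjusted p = 0.00554) and 0.47 without replicate 1 (adjusted p = 0.000126). Exons of FAM126B on the opposite strand cover 19.8% of NDUFB3. NDUFV3, a small subunit beside the NADH site and the lowest of the complex per kilobase (6.65 CPM per kb in DMSO), was at 20.4, 19.8 and 22.0 CPM in DMSO, 25.2, 25.9 and 24.4 CPM at 5 µM, and 32.1, 28.5 and 25.7 CPM at 10 µM. It rose by 0.47 ± 0.10 on the log2 scale at 10 µM (edgeR, adjusted p = 0.0044) and by 0.38 without replicate 1 (adjusted p = 0.000803).

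NDUFA13, the highest of the complex per kilobase (165 CPM per kb in DMSO), was at 147, 135 and 127 CPM in DMSO, 150, 147 and 146 CPM at 5 µM, and 255, 142 and 159 CPM at 10 µM. Replicates 2 and 3 at 10 µM fell within or just above the DMSO range, and the change did not pass the test with all libraries (0.44, edgeR adjusted p = 0.0866). It passed with the length and GC trend removed, at 0.32 (adjusted p = 0.00879), or 0.23 without replicate 1 (adjusted p = 0.00193). NDUFS1, the largest core subunit and a carrier of iron-sulfur clusters, was named after its values were seen. It was at 88.9, 89.6 and 86.3 CPM in DMSO, 99.5, 95.1 and 93.4 CPM at 5 µM, and 73.2, 99.1 and 107 CPM at 10 µM. Replicate 1 was the lowest of the 9 libraries for this gene, whereas it lay above DMSO for most members. The change was 0.08 with all libraries (edgeR, adjusted p = 0.674) and 0.22 ± 0.05 without replicate 1 (adjusted p = 0.00169).

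Complex II also serves in the tricarboxylic acid cycle. With all libraries 2 of its 4 genes rose at 10 µM, beside 16.4% of all genes. The median was 0.16, or 0.05 without 10 µM replicate 1, near the 0.07 of complex V. The median ratio of its genes to DMSO was 1.2 in 10 µM replicate 1, against 1.67 to 2.04 for the other complexes, and 1.04 and 1.05 in replicates 2 and 3.

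SDHC, a membrane anchor, was at 156, 149 and 148 CPM in DMSO, 186, 169 and 182 CPM at 5 µM, and 207, 182 and 188 CPM at 10 µM. All treated libraries lay above all DMSO libraries. It rose at 10 µM by 0.35 ± 0.07 on the log2 scale (edgeR, adjusted p = 0.00555), and without replicate 1 by 0.25 at 5 µM (adjusted p = 0.000301) and 0.29 at 10 µM (adjusted p = 9.19e-05). With the length and GC trend removed the 10 µM change was 0.12 in both fits, which did not pass with all libraries (edgeR, adjusted p = 0.081) and passed without replicate 1 (adjusted p = 0.0224).

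SDHD, the other anchor, was at 67.7, 64.9 and 66.6 CPM in DMSO, 67.2, 65.8 and 68.3 CPM at 5 µM, and 68.9, 63.1 and 62.9 CPM at 10 µM. Replicates 2 and 3 at 10 µM lay below all DMSO libraries and replicate 1 above. The change at 10 µM was -0.03 (edgeR, adjusted p = 0.771) with all libraries and -0.08 (adjusted p = 0.215) without replicate 1. SDHD was called lower once the length and GC trend was removed, at -0.22 (edgeR, adjusted p = 0.00676) and -0.20 (adjusted p = 0.00244).

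SDHB, the iron-sulfur subunit, was at 105, 108 and 105 CPM in DMSO, 110, 110 and 108 CPM at 5 µM, and 162, 119 and 122 CPM at 10 µM. The 10 µM libraries lay above the other 6, with a change of 0.35 ± 0.11 (edgeR, adjusted p = 0.0341), or 0.19 ± 0.04 without replicate 1 (adjusted p = 0.00149). With the length and GC trend removed it no longer passed, at 0.18 with all libraries (edgeR, adjusted p = 0.0654) and 0.08 without replicate 1 (adjusted p = 0.108). SDHA, the flavoprotein that binds succinate, was at 139, 131 and 127 CPM in DMSO, 130, 128 and 118 CPM at 5 µM, and 140, 119 and 123 CPM at 10 µM. It did not pass the test at 10 µM, with adjusted p = 0.671 in edgeR with all libraries and 0.0501 without replicate 1. The count of SDHA was not a whole number in any library, which shows reads shared with other loci.

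Complex III moved in both directions. Of its 10 genes, 6 rose and 1 fell at 10 µM with all libraries, beside 16.4% and 18% of all genes. Without 10 µM replicate 1, 6 rose and 2 fell at each dose. Of all genes in that fit, 16.5% rose and 17.6% fell at 5 µM, and 23% rose and 25.8% fell at 10 µM. The falls were UQCRC2 and UQCRC1, the pair of large core proteins on the matrix side.

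UQCRC2 (chr16:21952660-21983660, plus strand, GRCh38) was at 103, 100 and 109 CPM in DMSO, 80.1, 83.6 and 80.0 CPM at 5 µM, and 72.9, 67.2 and 61.9 CPM at 10 µM. The 3 groups did not overlap, and 10 µM was the lowest, including in replicate 1, where most other members were high. It fell by 0.36 on the log2 scale at 5 µM (SE 0.08, edgeR adjusted p = 0.0193) and by 0.63 at 10 µM (SE 0.08, adjusted p = 0.000266). Without replicate 1 the changes were -0.36 ± 0.05 (adjusted p = 3.36e-05) and -0.69 ± 0.06 (adjusted p = 4.85e-08), and 10 µM lay below 5 µM by -0.33 ± 0.05 (adjusted p = 0.000375). The call at 5 µM with all libraries was lost when any DMSO or 5 µM library was left out, with changes of -0.32 to -0.39. UQCRC2 was the only member called lower with all libraries at either dose.

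UQCRC1 was at 228, 218 and 216 CPM in DMSO, 177, 200 and 191 CPM at 5 µM, and 243, 191 and 181 CPM at 10 µM. The 5 µM libraries and 10 µM replicates 2 and 3 lay below DMSO and replicate 1 lay above. With all libraries the 10 µM change did not pass (-0.11 ± 0.11, edgeR adjusted p = 0.478), and without replicate 1 it was -0.22 ± 0.04 at 5 µM (adjusted p = 0.00107) and -0.25 ± 0.05 at 10 µM (adjusted p = 0.000655). UQCRFS1, the Rieske iron-sulfur protein, was named after its values were seen, and it rose by 0.43 at 10 µM (edgeR, adjusted p = 0.0304) and by 0.23 without replicate 1 (adjusted p = 0.00182).

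UQCRQ, a small accessory subunit (chr5:132866560-132868031, plus strand), was at 88.3, 87.1 and 80.7 CPM in DMSO, 103, 103 and 106 CPM at 5 µM, and 171, 110 and 129 CPM at 10 µM. The 3 groups did not overlap. The change was 0.68 ± 0.14 at 10 µM (edgeR, adjusted p = 0.0037), and without replicate 1 it was 0.29 ± 0.05 at 5 µM (adjusted p = 0.000742) and 0.48 ± 0.06 at 10 µM (adjusted p = 7.2e-06). Exons of GDF9 on the opposite strand cover 20.8% of UQCRQ.

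UQCRHL, a copy of the hinge subunit gene UQCRH, was at 4.11, 3.87 and 3.52 CPM in DMSO, 6.09, 4.01 and 6.73 CPM at 5 µM, and 8.90, 5.36 and 8.76 CPM at 10 µM. It had the largest positive fold change among members of at least 1 CPM at both doses. At 10 µM it rose by 1.00 ± 0.24 (edgeR, adjusted p = 0.0102), or 0.88 without replicate 1 (adjusted p = 0.00488). At 5 µM, where replicate 2 lay within the DMSO range, its 0.55 did not pass (adjusted p = 0.199, or 0.0565 without 10 µM replicate 1). UQCRH itself, the highest gene of the complex per kilobase (459 CPM per kb in DMSO), was at 298, 273 and 258 CPM in DMSO, 325, 294 and 314 CPM at 5 µM, and 504, 296 and 312 CPM at 10 µM, and did not pass at 10 µM (0.42, edgeR adjusted p = 0.0909). Neither had whole counts in any library, so the split of reads between this pair is an estimate and the UQCRHL value is uncertain. UQCRBP1, the pseudogene, had the most negative fold change at 5 µM among members of at least 1 CPM and did not pass the test, at 6.88, 7.94 and 9.03 CPM in DMSO and 6.75, 6.51 and 5.17 CPM at 5 µM.

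**Figure D3:**
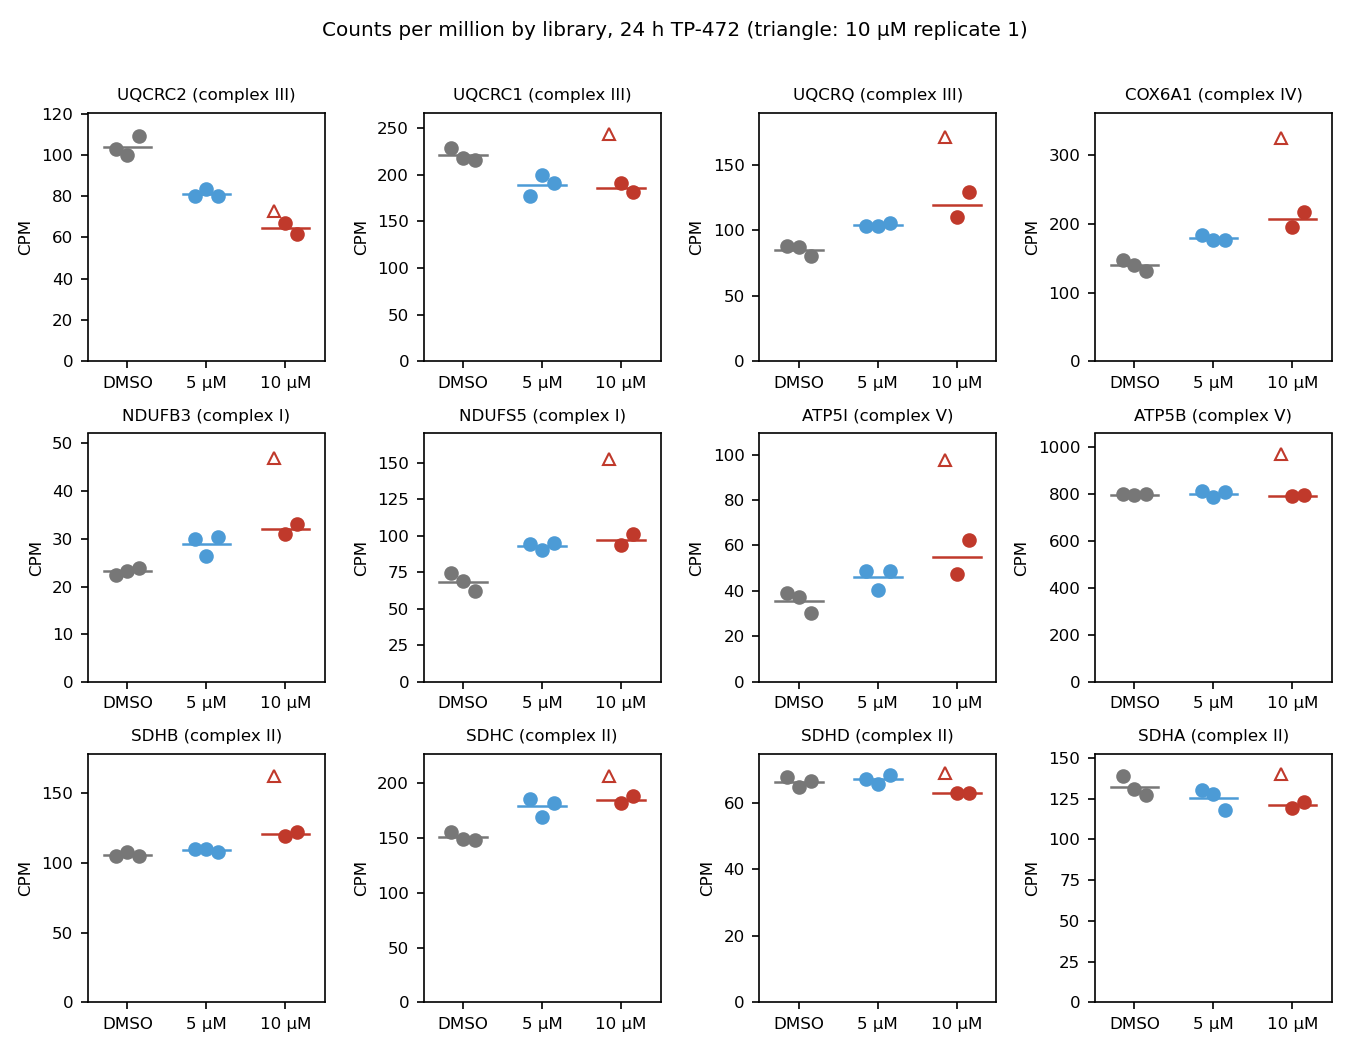
CPM of 12 members in each library, from left to right DMSO, 5 µM and 10 µM, with a point per library, a line at the group mean (replicates 2 and 3 at 10 µM) and a triangle for 10 µM replicate 1. UQCRC2 steps down with dose in all libraries, UQCRQ and COX6A1 step up, and the triangle lies above the other 10 µM libraries for all 12.

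Complex IV had the largest median of the 5 complexes at 10 µM with all libraries, 0.58, which was 0.24 without 10 µM replicate 1. Of its 14 tested genes, 6 rose at 10 µM with all libraries, beside 16.4% of all genes. Without replicate 1, 6 rose at 5 µM and 7 at 10 µM, beside 16.5% and 23%. None fell in these comparisons, beside 17.6% to 25.8% of all genes.

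COX6A1, an accessory subunit in its widely expressed form (chr12:120438090-120440742, plus strand), was at 148, 141 and 131 CPM in DMSO, 184, 177 and 176 CPM at 5 µM, and 325, 196 and 218 CPM at 10 µM. The 3 groups did not overlap and followed the dose. The change was 0.35 at 5 µM (edgeR, adjusted p = 0.206) and 0.81 ± 0.16 at 10 µM (adjusted p = 0.00342) with all libraries. Without replicate 1 it was 0.35 ± 0.05 (adjusted p = 3.97e-05) and 0.56 ± 0.05 (adjusted p = 3.58e-07), and 10 µM lay above 5 µM by 0.21 ± 0.05 (adjusted p = 0.00969). With the length and GC trend removed as well, it was 0.27 at 5 µM and 0.46 at 10 µM. Exons of another gene on the same strand, AL021546.1, cover 13% of COX6A1.

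COX7B, a small accessory subunit, was at 55.7, 54.7 and 51.4 CPM in DMSO, 71.7, 65.9 and 70.8 CPM at 5 µM, and 122, 70.3 and 82.1 CPM at 10 µM. Every treated library lay above DMSO, and COX7B rose by 0.76 ± 0.17 at 10 µM (edgeR, adjusted p = 0.00655) and by 0.50 ± 0.07 without replicate 1 (adjusted p = 1.64e-05). COX6C, at 54.8, 54.3 and 52.6 CPM in DMSO, 59.7, 56.7 and 66.1 CPM at 5 µM, and 112, 63.3 and 77.9 CPM at 10 µM, rose at 10 µM by 0.64 ± 0.17 (edgeR, adjusted p = 0.016) and by 0.39 without replicate 1 (adjusted p = 0.000806), or 0.24 with the length and GC trend removed as well (adjusted p = 0.00932).

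Where complex IV has tissue isoforms, the widely expressed form had the higher level in each pair. COX4I1, the highest of the complex per kilobase (273 CPM per kb in DMSO), was at 203 to 228 CPM with DMSO, 215 to 233 CPM with 5 µM and 347, 214 and 227 CPM at 10 µM, and did not pass at 10 µM (0.28, edgeR adjusted p = 0.21). COX4I2, the form known from lung, was at 0 in all 9 libraries. The muscle form COX6A2 and the testis form COX8C were under the count filter, and COX7A1, the muscle form of COX7A, was at 0.0617 to 0.0946 CPM in DMSO. COX7B2, the counterpart of COX7B known from testis, was named after its values were seen. It was at 3.94, 3.35 and 4.4 CPM in DMSO, 6.75, 4.42 and 4.5 CPM at 5 µM, and 6.59, 6.02 and 3.12 CPM at 10 µM, and did not pass at 10 µM (0.43, edgeR adjusted p = 0.281).

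COX6B1 was at 94.5, 89.6 and 85.7 CPM in DMSO, 106, 106 and 109 CPM at 5 µM, and 194, 110 and 102 CPM at 10 µM, and rose at 10 µM by 0.59 ± 0.20 (edgeR, adjusted p = 0.0461), or by 0.24 without replicate 1 (adjusted p = 0.00126). Its testis counterpart COX6B2 was at 0.262 to 0.402 CPM in DMSO. COX7A2 did not pass with all libraries (0.52, edgeR adjusted p = 0.0641) and rose by 0.19 at each dose without replicate 1 (adjusted p = 0.0151 at 5 µM and 0.0185 at 10 µM). With the length and GC trend removed as well, neither passed, at 0.09 (edgeR, adjusted p = 0.168) and 0.02 (adjusted p = 0.815). COX7A2L, which helps to join complexes III and IV into supercomplexes, was at 61.9 to 64.1 CPM with DMSO, 61.6 to 63.9 CPM with 5 µM and 75, 62.8 and 63.7 CPM at 10 µM, and its change did not pass (0.09, edgeR adjusted p = 0.421). COX8A was at 116 to 135 CPM in DMSO and at 204, 125 and 109 CPM at 10 µM, so that replicates 2 and 3 fell within or below the DMSO range.

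Complex V had a smaller median change than complexes I, III and IV without 10 µM replicate 1. With all libraries 6 of its 18 tested genes rose at 10 µM, beside 16.4% of all genes, with a median of 0.40. Without replicate 1, 10 rose and 1 fell at 5 µM, beside 16.5% and 17.6% of all genes. At 10 µM in that fit 7 rose and 2 fell, beside 23% and 25.8%, and the median was 0.07.

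By part of the enzyme, without replicate 1, 1 of the 5 genes of the F1 head rose at 10 µM and 1 fell. In that fit 3 of 4 peripheral stalk genes and 2 of 3 membrane part genes rose. Of the 3 c ring genes none rose and 1 fell. Beside these, 23% of all genes rose and 25.8% fell. Removal of the length and GC trend as well left 1 higher and 3 lower in the F1 head and 1 higher in the stalk. In the membrane part ATP5I and ATP5L were still called higher, and in the c ring ATP5G2 was still called lower. With the trend removed, 24.8% of all genes rose and 25.8% fell. The difference between parts was not tested. ATP5E, the epsilon subunit of the F1 head (chr20:59025467-59032382, minus strand), was at 102, 103 and 91.4 CPM in DMSO, 140, 119 and 135 CPM at 5 µM, and 249, 135 and 155 CPM at 10 µM. All treated libraries lay above DMSO, with a change at 10 µM of 0.86 ± 0.19 (edgeR, adjusted p = 0.00693), or 0.55 without replicate 1 (adjusted p = 1.35e-05). Its counts were not whole in any library, as for a gene that shares reads with its copy ATP5EP2, and exons of TUBB1 on the opposite strand cover 23.2% of it.

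ATP5I, subunit e of the membrane part (chr4:672436-674338, minus strand), was at 39.3, 37.2 and 30.5 CPM in DMSO, 48.6, 40.4 and 49.0 CPM at 5 µM, and 97.8, 47.5 and 62.3 CPM at 10 µM. The treated libraries lay above DMSO, and ATP5I rose by 0.96 ± 0.23 at 10 µM (edgeR, adjusted p = 0.00905) and by 0.62 ± 0.12 without replicate 1 (adjusted p = 0.000382). Exons of MYL5 on the opposite strand cover 61.6% of ATP5I, and whether counting used strand is not given, so this value is uncertain. ATP5L, subunit g of the membrane part, was at 105, 95.2 and 94.5 CPM in DMSO, 126, 116 and 121 CPM at 5 µM, and 199, 129 and 140 CPM at 10 µM. It rose by 0.67 ± 0.14 at 10 µM (edgeR, adjusted p = 0.0051) and by 0.46 without replicate 1 (adjusted p = 5.5e-06).

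ATP5B, the catalytic beta subunit and the highest of the complex per kilobase (433 CPM per kb in DMSO), was at 797, 793 and 798 CPM in DMSO, 810, 786 and 806 CPM at 5 µM, and 969, 790 and 795 CPM at 10 µM. Apart from 10 µM replicate 1, the 8 libraries lay within 786 to 810 CPM, and the change without that library was -0.01 (edgeR, adjusted p = 0.81), or -0.07 with the length and GC trend removed as well (adjusted p = 0.0436). ATP5A1, the alpha subunit, was named after its values were seen. It was at 426, 438 and 443 CPM in DMSO, 417, 418 and 409 CPM at 5 µM, and 431, 372 and 383 CPM at 10 µM. It fell by 0.21 on the log2 scale at 10 µM without replicate 1 (SE 0.03, edgeR adjusted p = 7.94e-05). With all libraries the 10 µM change did not pass (-0.14, edgeR adjusted p = 0.156). Nor did the 5 µM change without 10 µM replicate 1 (-0.07, adjusted p = 0.0756). ATP5A1 has 7 named pseudogenes, and its count was a whole number in every library.

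The c ring is encoded by 3 genes whose mature proteins are the same, and each is described by itself. ATP5G2 was at 160, 154 and 155 CPM in DMSO, 142, 135 and 148 CPM at 5 µM, and 216, 124 and 123 CPM at 10 µM. Without replicate 1 the groups did not overlap and it fell by 0.14 at 5 µM (edgeR, adjusted p = 0.0115) and by 0.34 at 10 µM (adjusted p = 1.2e-05), whereas with all libraries the 10 µM change was -0.02 (adjusted p = 0.956). ATP5G1 was at 35.3, 34.5 and 36.7 CPM in DMSO, 40.9, 40.4 and 41.9 CPM at 5 µM, and 67.2, 41.8 and 36.8 CPM at 10 µM. Without replicate 1 it rose by 0.21 at 5 µM (edgeR, adjusted p = 0.014) and did not pass at 10 µM (0.14, adjusted p = 0.0915). ATP5G3, at 120 to 131 CPM in DMSO and 131 to 142 CPM at 5 µM, rose by 0.13 at 5 µM in that fit (adjusted p = 0.0347) and did not pass at 10 µM (0.07, adjusted p = 0.252). With the length and GC trend removed as well, the 5 µM calls of ATP5G1 (0.13, edgeR adjusted p = 0.114) and ATP5G3 (0.06, adjusted p = 0.266) were lost, while ATP5G2 was still called lower at both doses (adjusted p = 0.00084 and 3.29e-06). ATP5J2-PTCD1, the lowest tested gene of the complex per kilobase, was at 0 to 6.5 CPM in DMSO and at 14.4, 3.63 and 0 CPM at 10 µM.

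**Figure D4:**
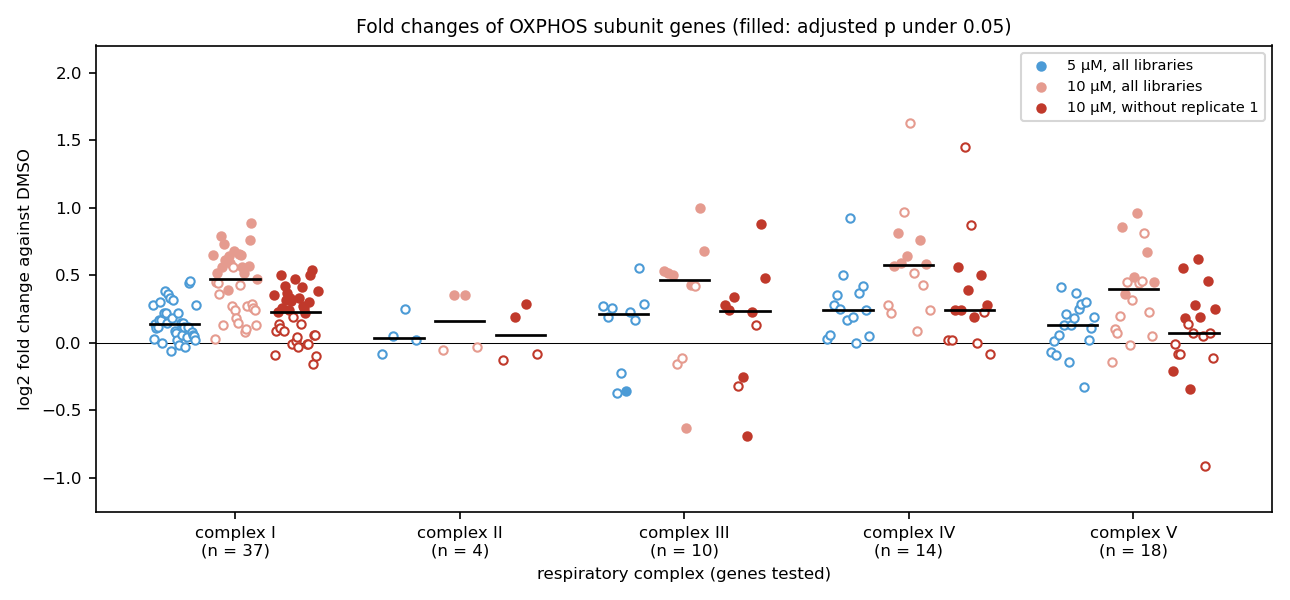
Log2 fold change of each tested member by complex, at 5 µM and 10 µM against DMSO with all libraries (blue and pale red) and at 10 µM without replicate 1 (dark red). Filled points passed an adjusted p under 0.05, and the bar is the median of the complex. Without replicate 1 the bars at 10 µM are lower in every complex, at 0.23 for complex I, 0.05 for II, 0.24 for III and IV and 0.07 for V.

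The 2 doses were also compared directly. With all libraries no member differed between 10 µM and 5 µM after adjustment in edgeR's quasi-likelihood test, beside 2.87% of genes higher and 5.53% lower, although the members' median was 0.25. At an unadjusted p under 0.05 that test had 18 members higher and 1 lower, and the share of all genes was not counted. DESeq2 called 4 members higher and 1 lower, beside 1080 and 1382 of all genes. Without 10 µM replicate 1 the median was 0.01, and 4 members were higher and 4 lower, beside 8.8% and 15.4% of genes. The higher ones were COX6A1, UQCRQ, NDUFB9 and SDHB, and the lower ones UQCRC2, ATP5A1, ATP5G2 and ATP5J2, of which NDUFB9, ATP5A1 and ATP5J2 were named after their values were seen. Without 10 µM replicate 2, 9 members were higher at 10 µM than at 5 µM and none lower, beside 557 and 1047 of all genes.

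Genes of other mitochondrial lists gave the setting of these changes, and counts are for fits without 10 µM replicate 1, in which 16.5% of all genes rose and 17.6% fell at 5 µM, and 23% rose and 25.8% fell at 10 µM. Of 6 subunits whose symbols the rule does not cover, 3 rose at 5 µM and 4 at 10 µM, among them C14orf2, a small ATP synthase subunit (0.46 at 10 µM, edgeR adjusted p = 6.74e-05), and USMG5, also of ATP synthase (0.35, adjusted p = 0.000214). Of 46 assembly factors, 21 rose and 1 fell at 5 µM, and 24 rose and 2 fell at 10 µM. NDUFAF1, which assembles complex I, rose by 0.39 at 5 µM (adjusted p = 0.000573) and 0.68 at 10 µM (adjusted p = 3.54e-06). COX19, a copper-handling factor for complex IV, was at -0.05 at 5 µM (adjusted p = 0.758) and rose by 0.76 at 10 µM (adjusted p = 5e-05).

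Mitochondrial ribosomal proteins, which translate the subunits made inside the organelle, gave 27 higher and 2 lower of 77 at 5 µM, and 35 higher and 4 lower at 10 µM, with medians of 0.12 and 0.16. MRPS23 rose by 0.37 (edgeR, adjusted p = 1.54e-05) and MRPL46 by 0.59 (adjusted p = 3.07e-05) at 10 µM. Of 17 genes of the tricarboxylic acid cycle and pyruvate dehydrogenase, 4 rose and 3 fell at 10 µM, a share higher that is near that of all genes, with a median of 0.08. IDH3A, of the isocitrate dehydrogenase of the cycle, rose by 0.54 (adjusted p = 3.44e-07) and SUCLG2, of succinyl-CoA ligase, fell by 0.44 (adjusted p = 4.65e-06).

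Of 18 regulators of mitochondrial gene expression, 7 rose and 2 fell at 10 µM, with a median of 0.13. TFB2M, a factor for transcription of mitochondrial DNA, rose by 0.42 (edgeR, adjusted p = 2.91e-05), and TFB1M, which methylates the mitochondrial ribosomal RNA, fell by 0.60 at 5 µM (adjusted p = 1.39e-06) and 0.65 at 10 µM (adjusted p = 8.12e-07). Of 19 carriers with cytochrome c, 6 rose and 8 fell at 10 µM, with a median of -0.09. CYCS, cytochrome c itself, rose by 0.41 at 5 µM (adjusted p = 1.29e-05) and 0.63 at 10 µM (adjusted p = 1.41e-07), and SLC25A4, an ADP/ATP carrier, by 0.54 (adjusted p = 6.42e-07) and 0.66 (adjusted p = 7.57e-08). The table used here lists no gene of the mitochondrial genome.

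**Figure D5:**
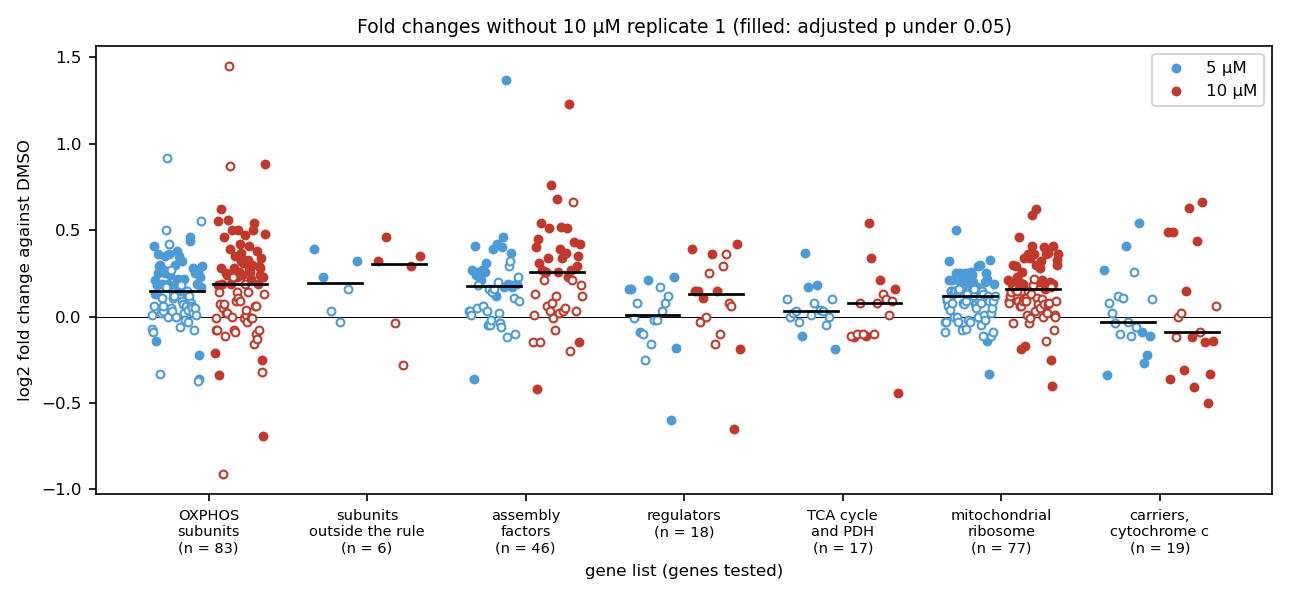
Log2 fold changes against DMSO for the members and for 6 other lists of mitochondrial genes at 5 µM and 10 µM, in fits without 10 µM replicate 1, with a point per gene and a bar at the median. Assembly factors have medians of 0.18 and 0.26, close to or above the members' 0.15 and 0.19, and the carriers lie at -0.03 and -0.09.

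The motifs in the promoters shown above were set beside the changes. Of the 30 tested members with any of the 3 motifs, 19 rose and 2 fell at 10 µM without replicate 1, with a median of 0.24. Of the 35 with none, 15 rose and 2 fell, with a median of 0.18. In that fit 23% of all genes rose and 25.8% fell. COX6A1, ATP5I and UQCRQ hold a motif and rose, SDHD holds the NRF1 core and the ETS motif and was called, as lower, only with the length and GC trend removed, and ATP5G2 holds the NRF1 core and fell at both doses without replicate 1. No test of the difference was made.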

How the data were processed

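mRNA of A375 cells treated for 24 h with DMSO, 5 µM or 10 µM TP-472 was sequenced in 3 libraries per group, described as biological replicates. The authors deposited expected counts for each gene symbol in 1 table of 9 libraries, not scaled to library size. The submitters' processing notes name RSEM 1.2.15, Bowtie2 2.1.0 and hg38. The sources used here do not give the annotation or the strand setting of the counting, and the sources name both oligo-dT selection and ribosomal RNA depletion. Between 10.6% and 13.8% of values per library were not whole (tolerance 0.001), which marks reads shared between symbols.

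Counts were rounded and tested with edgeR 4.0.16 in R 4.3.3 (TMM factors 0.957 to 1.029, filterByExpr, 1 fit of the 3 groups, the quasi-likelihood test). P-values were adjusted over all genes tested by Benjamini-Hochberg. A member was called at an adjusted p under 0.05, at any fold. SE was taken as the absolute log2 change over the root of its F statistic. Low counts limit precision for ATP5J2-PTCD1, COX7A1 and COX6B2. The scripts were tested on simulated data. Fits without 10 µM replicate 1, which stood apart by transcript length, were run beside it, as were DESeq2 1.42.0, limma-voom (limma 3.58.1), other scalings and filters, and a spline trend on length and GC content removed per library. Lengths, overlaps and gene coordinates are from GENCODE 29, with length as the median over coding transcripts, and promoters from RefSeq (GRCh38.p14). Named genes were, per complex, the 3 with the smallest p at 10 µM and the 2 at 5 µM, the largest changes, the highest and lowest by CPM per kilobase, the SDH genes, isoform sets, members called against their complex, and 2 genes per other list. The members and lists were chosen with earlier results of these data known. Tables and plots were made in Python 3.11.15 (matplotlib 3.10.9, numpy 2.4.6, pandas 2.3.3).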

Additional observations from a re-analysis of the deposited data

How the results depend on the processing

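With all 9 libraries, DESeq2 called 1 member higher and 1 lower at 5 µM, beside 1217 and 1463 of all genes. At 10 µM it called 46 higher and 1 lower, beside 3233 and 3236. For 10 µM against 5 µM it called 4 higher and 1 lower, beside 1080 and 1382. Removing the length and GC trend gave 2 higher and 2 lower at 5 µM, beside 9.15% and 9.98% of all genes. It gave 34 higher and 3 lower at 10 µM, beside 23.1% and 19.6%. Between doses it gave 3 higher and 1 lower, beside 6.62% and 7.31%. With the replicate block as well, trend removal gave 5 higher and 1 lower at 5 µM, beside 1338 and 1487 of all genes. It gave 36 higher and 2 lower at 10 µM, beside 3467 and 3042. Between doses it gave 4 higher and 1 lower, beside 905 and 1034. After each gene's group mean was taken out, same-numbered libraries correlated at -0.05 to 0.03, which gave no sign that replicate numbers mark pairs. The replicate block alone gave 0 higher and 1 lower at 5 µM, beside 522 and 738 of all genes. It gave 38 higher and 1 lower at 10 µM, beside 2425 and 2887, and none between doses, beside 301 and 689. Its medians were 0.17, 0.41 and 0.22. A fit of only the compared groups gave 45 higher and 4 lower at 5 µM, beside 3051 and 3280 of all genes. At 10 µM it gave 18 higher and 1 lower, beside 2022 and 2296. The 1.5-fold limit left 0 higher and 0 lower at 5 µM, beside 352 and 447 of all genes. At 10 µM it left 21 higher and 1 lower, beside 1407 and 1730.

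Leaving out each library in turn gave 0 to 39 higher, 0 to 3 lower and a median of 0.12 to 0.19 at 5 µM. At 10 µM it gave 14 to 47 higher, 1 to 4 lower and a median of 0.19 to 0.55, and between doses 0 to 9 higher, 0 to 4 lower and a median of 0.01 to 0.37. Of all genes, these fits called 263 to 2770 higher and 410 to 2951 lower at 5 µM. At 10 µM they called 1645 to 3854 higher and 2127 to 4316 lower, and between doses 146 to 1474 higher and 388 to 2576 lower. A fit without 10 µM replicate 1 and with the trend removed was added after seeing the data. It gave 28 higher and 5 lower at 5 µM, beside 17.9% and 18.1% of all genes. At 10 µM 35 were higher and 8 lower, beside 24.8% and 25.8%, with a median of 0.12. Between doses 4 were higher and 6 lower, beside 9.7% and 15%, with a median of 0. DESeq2 without that library, also added after seeing the data, gave 42 higher and 4 lower at 5 µM, beside 2841 and 3018 of all genes. At 10 µM it gave 46 higher and 4 lower, beside 4006 and 4274, with a median of 0.21. Between doses it gave 6 higher and 4 lower, beside 1688 and 2557, with a median of 0.02. Where a fit leaves 2 libraries in a group, their spread is taken from all groups. Causes other than the changed libraries were not tested. For single named members, 1238 values over comparisons and alternatives counted as the same, 91 passed the threshold newly and 29 no longer passed. A member not called in the main fit counted as the same even when its direction changed. ATP5B did so at 10 µM, with 0.10 in the main fit and -0.01 without replicate 1. No named member called in the main fit changed direction.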
